A study of Mus musculus with 36 samples.

Results

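Genes of DNA repair were followed in mouse kidney over a range of injected activities of a therapeutic radiopeptide. The set was defined by symbol and held 31 genes. It covered direct reversal of damage (Mgmt), translesion synthesis (Polk, Polh), nucleotide excision repair, base excision and single-strand break repair with ligation, break sensing and checkpoint signalling, homologous recombination with the Fanconi pathway, non-homologous end joining, and nucleotide supply (Rrm2b). Probes were kept when 3 or more of the 36 arrays gave a detection p below 0.05. Of the 61 probes that carried one of these symbols, 41 passed, and they stood for 24 genes. For 6 genes no probe passed, namely Ercc2, Nbn, Chek1, Brca1, Fancd2 and Xrcc5, and Atr was not analysed here, so these genes have no value below. Over the whole array, 15420 probes passed, and those with a symbol stood for 10571 genes. The brightest passing probe, averaged over all arrays, stands for its gene, and the 12 genes with several passing probes are compared among their probes where the calls differ.

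Repair of DNA is divided by the kind of lesion. Oxidised and deaminated bases are cut out by base excision repair, bulky lesions are cut out by nucleotide excision repair, and broken strands are rejoined by end joining or copied from a sister chromatid by homologous recombination. Translesion polymerases copy past lesions that stop the replicative polymerases, and Mgmt takes alkyl groups off guanine without cutting the strand. Many of these proteins are already present in resting tissue and are regulated after transcription, while some of their genes are known targets of the transcription factor p53.

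The tissue was kidney of Balb/c mice, taken 24 h after dosing. The agent, 177Lu-octreotate, binds somatostatin receptors, carries a beta-emitting isotope of lutetium and is retained in the renal proximal tubule. Groups received 0 MBq, which served as the control, or 1.3, 3.6, 14, 45 or 140 MBq. Cortex and medulla each gave 3 Illumina bead arrays per activity, that is 12 groups and 36 arrays. The labels do not say if the 3 arrays of a group stand for 3 mice, so each p describes variation among these arrays alone, which may be technical.

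Median signals ran from 112 to 225 per array, and 47.3 to 51.8% of the 25697 probes were detected. Levels are log2 signals after background correction and quantile normalisation, and differences are treated minus 0 MBq of the same tissue, ± SE, with limma's p adjusted over all tested probes. A gene was called where its adjusted p was under 0.05. Markers of the thick limb and collecting duct, 6 genes, had a mean deviation from their average over all arrays of -1.08 to 0.24 in cortex and -0.02 to 1.05 in medulla. The 7 proximal tubule markers spanned -0.88 to 0.39 in cortex and -1.04 to 0.34 in medulla, so their ranges overlapped almost wholly. Replicate 1 of the controls stood apart in both tissues, since its 10 immune markers lay at 1.59 in cortex and 1.89 in medulla, against -1.30 to 1.05 on the other arrays. Replicate 3 at 14 MBq had 5 adrenal cortex markers at 5.01 in cortex and 4.14 in medulla, and no other array was above 0.62. The 6 adipocyte markers were highest in cortex at replicate 2 of 1.3 MBq (3.37), replicate 3 of 14 MBq (3.26) and replicate 3 of 45 MBq (2.49), against -1.75 to 0.86 in the cortex controls. The immune markers had median differences from 0 MBq of -1.77 at 14 MBq and -1.91 at 45 MBq in cortex, with 1 of 10 called at each. In medulla at 14 MBq their median difference was -1.17, with 3 of 10 called, and 2 of 6 endothelial markers fell in cortex at 14 MBq. Beside these counts, 1.19% of all probes were called either way at 14 MBq and 0.707% at 45 MBq in cortex, and 4.14% at 14 MBq in medulla. The part of these markers in the results below was not tested beyond leaving out single arrays. As these are whole-tissue samples, fewer cells of a type and less RNA per cell cannot be told apart.

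At 140 MBq most of the repair genes did not pass the test in either tissue. In cortex, 2 of the 24 genes rose, Mgmt and Polk, and 0 fell. By probe this was 3 of 41, where 0.59% of all tested probes rose and 0.739% were called in either direction. In medulla 3 genes rose, Mgmt, Polk and Ercc5, and 0 fell, which was 4 of 41 probes against 0.882% of all probes upward and 1.25% either way. The median difference over the 24 genes was 0.03 in cortex and 0.09 in medulla, beside 0.01 and 0.02 over all probes. By pathway, the calls fell on the reversal enzyme, on 1 of the 2 translesion polymerases and, in medulla, on 1 of 5 nucleotide excision genes. None of the 7 base excision and ligation genes, 5 break sensing genes, 2 end joining genes, the recombination gene Brca2 or the nucleotide supply gene Rrm2b was called at this activity.

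**Figure D1:**
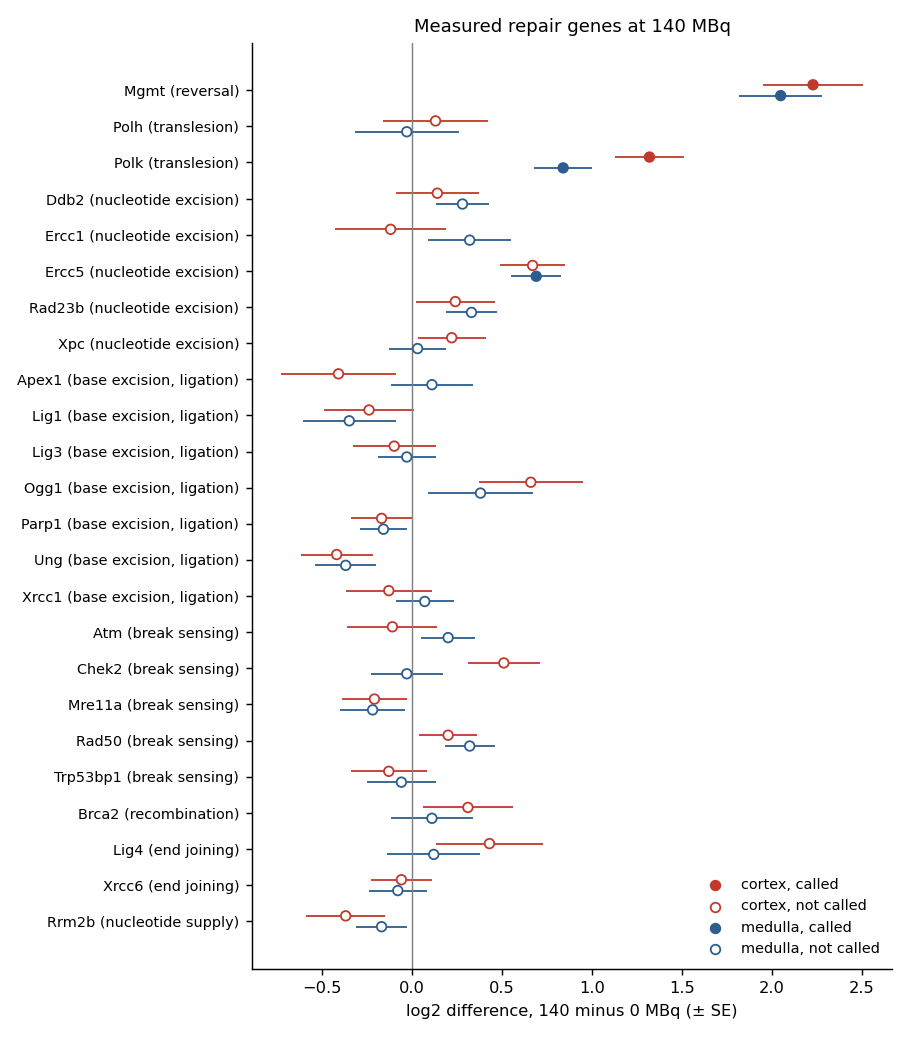
Log2 difference between 140 and 0 MBq (x axis, ± SE) for the 24 measured repair genes (y axis, ordered by pathway) in cortex (red) and medulla (blue), with filled points for genes called at an adjusted p under 0.05. Mgmt at 2.23 in cortex and 2.05 in medulla and Polk at 1.32 and 0.84 lie farthest to the right, followed by Ercc5 at 0.67 and 0.69 and by Ogg1 at 0.66 in cortex, which was not called.

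Mgmt encodes O6-methylguanine-DNA methyltransferase, which is used up by each alkyl group that it removes, and was read by a single probe, ILMN_2876448. In cortex its log2 signals were 5.73, 5.86 and 5.09 at 0 MBq, 5.29, 5.56 and 5.34 at 1.3 MBq, and 6.12, 6.71 and 6.56 at 3.6 MBq. They were 6.90, 6.79 and 6.28 at 14 MBq, 7.45, 7.88 and 7.44 at 45 MBq, and 7.47, 7.44 and 8.45 at 140 MBq. Every cortex array at 3.6 MBq and above lay over every array at 0 and 1.3 MBq, and the groups at 45 and 140 MBq overlapped each other but no lower group. The difference was 2.23 ± 0.28 at 140 MBq, a 4.69-fold rise (adjusted p = 0.000465 by limma), and 2.03 ± 0.28 at 45 MBq (adjusted p = 0.00208). Those at 1.3 MBq (-0.16, adjusted p = 0.89), 3.6 MBq (0.90, adjusted p = 0.197) and 14 MBq (1.10, adjusted p = 0.0745) did not pass.

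In medulla the order was alike. The Mgmt signals were 4.87, 5.17 and 5.67 at 0 MBq, 4.94, 5.40 and 5.23 at 1.3 MBq, and 5.63, 6.20 and 5.81 at 3.6 MBq. They were 6.34, 6.0 and 6.04 at 14 MBq, 7.19, 7.35 and 6.64 at 45 MBq, and 7.06, 7.40 and 7.39 at 140 MBq. The arrays at 14, 45 and 140 MBq lay above all controls, and those at 3.6 MBq overlapped them. The rise was 2.05 ± 0.23 at 140 MBq, or 4.13-fold (adjusted p = 8.77e-05 by limma), 1.82 at 45 MBq (adjusted p = 0.000445) and 0.89 at 14 MBq (adjusted p = 0.0371). The low groups were near background. Mgmt was detected on 3 of 3 arrays at 140 MBq in both tissues, against 2 of 3 controls in cortex and 1 of 3 in medulla, and on 0 of 3 arrays at 1.3 MBq in either tissue, where only a bound can be given. Against that bound, 140 MBq was at least 4.18-fold higher than 1.3 MBq in cortex and at least 3.18-fold higher in medulla.

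The size of the Mgmt rise depended on the background correction, and its direction did not. With no background correction the difference at 140 MBq was 1.03 in cortex and 0.85 in medulla, and with the authors' deposited normalisation it was 0.99 and 0.82, all called. Without control replicate 1 it was 2.31 in cortex (adjusted p = 0.00215 by limma) and 1.86 in medulla (adjusted p = 0.00074). The medulla call at 14 MBq was lost without that control (0.71, adjusted p = 0.149), without control replicate 2, and without any one array at 14 MBq, replicate 3 among them (0.93, adjusted p = 0.0948). It was also lost with the deposited normalisation (0.32, adjusted p = 0.0739).

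Polk encodes polymerase kappa, a Y-family translesion polymerase that copies past bulky guanine adducts, and was read by probe ILMN_1240630. In cortex its log2 signals were 8.21, 8.34 and 8.64 at 0 MBq, 7.89, 8.28 and 8.48 at 1.3 MBq, and 8.39, 8.18 and 8.41 at 3.6 MBq. They were 8.98, 9.17 and 9.14 at 14 MBq, 9.45, 9.26 and 8.89 at 45 MBq, and 9.52, 9.79 and 9.83 at 140 MBq. Every array at 14 MBq and above lay over every array at 3.6 MBq and below. The difference at 140 MBq was 1.32 ± 0.19, or 2.49-fold (adjusted p = 0.00179 by limma), while those at 14 MBq (0.70, adjusted p = 0.0924) and 45 MBq (0.80, adjusted p = 0.0707) missed the threshold.

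In medulla the Polk signals were 8.91, 8.46 and 8.68 at 0 MBq, 8.31, 8.55 and 8.28 at 1.3 MBq, and 8.34, 8.12 and 8.47 at 3.6 MBq. They were 8.92, 8.83 and 9.24 at 14 MBq, 9.17, 9.26 and 9.26 at 45 MBq, and 9.31, 9.52 and 9.73 at 140 MBq. The treated arrays again fell on either side of a gap between 3.6 and 14 MBq, but the controls overlapped the groups on both sides of it. The difference was 0.31 at 14 MBq (adjusted p = 0.263), 0.54 at 45 MBq (adjusted p = 0.0812) and 0.84 ± 0.16 at 140 MBq, or 1.79-fold (adjusted p = 0.0126 by limma). That call was lost without 140 MBq replicate 3 or without control replicate 2, with adjusted p up to 0.0802.

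The gap was tested after the values had been seen, by setting each activity against the next lower one. Polk was 0.69 ± 0.16 higher at 14 MBq than at 3.6 MBq in medulla (adjusted p = 0.013 by limma), where 7.83% of all probes differed, and 0.77 ± 0.19 higher in cortex, which did not pass (adjusted p = 0.621) and where 0% of probes did. Rad23b was the other gene of the 24 called in that medulla step (0.51, adjusted p = 0.0406). By probe these calls were 2 of 41, a smaller share than that of all probes, so the count is not read as a result about the set. Without 14 MBq replicate 3, the array with the adrenal markers, neither was called (Polk 0.57, adjusted p = 0.0726, and Rad23b 0.49, adjusted p = 0.115). The Polk call was also lost without replicate 1 or 2 at 3.6 MBq, and the Rad23b call without any one of the 6 arrays. None of the 24 was called between any other neighbouring activities in either tissue. Of all probes 0.798% were called for 45 against 14 MBq in medulla, 0.013% for 140 against 45 MBq in cortex, and 0% in the others.

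Ercc5 encodes XPG, the endonuclease that cuts on the 3′ side of the lesion in nucleotide excision repair. Its brighter probe read 10.72, 10.88 and 10.89 at 140 MBq in cortex, against 10.33, 10.09 and 10.05 at 0 MBq. In medulla it read 10.39, 10.63 and 10.86 at 140 MBq, against 10.14, 9.75 and 9.92 at 0 MBq. The 140 MBq arrays lay above all controls in both tissues. Group means at 1.3, 3.6, 14 and 45 MBq were 10.02, 10.14, 10.59 and 10.50 in cortex and 9.94, 10.03, 10.20 and 10.41 in medulla. The difference at 140 MBq was 0.67 ± 0.18 in cortex, which did not pass (adjusted p = 0.12 by limma), and 0.69 ± 0.14 in medulla, or 1.61-fold (adjusted p = 0.0237). The medulla call was lost without 140 MBq replicate 2, 140 MBq replicate 3 or control replicate 2, with adjusted p up to 0.125.

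The second Ercc5 probe, ILMN_2984462, passed at 140 MBq in both tissues. It read 10.25, 10.51 and 10.44 at 140 MBq in cortex, against 9.42, 9.45 and 9.53 at 0 MBq, and 10.21, 10.18 and 10.31 in medulla, against 9.42, 9.15 and 9.50. The groups did not overlap in either tissue. The difference was 0.93 ± 0.16 in cortex (adjusted p = 0.0106 by limma) and 0.87 ± 0.14 in medulla (adjusted p = 0.00244).

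**Figure D2:**
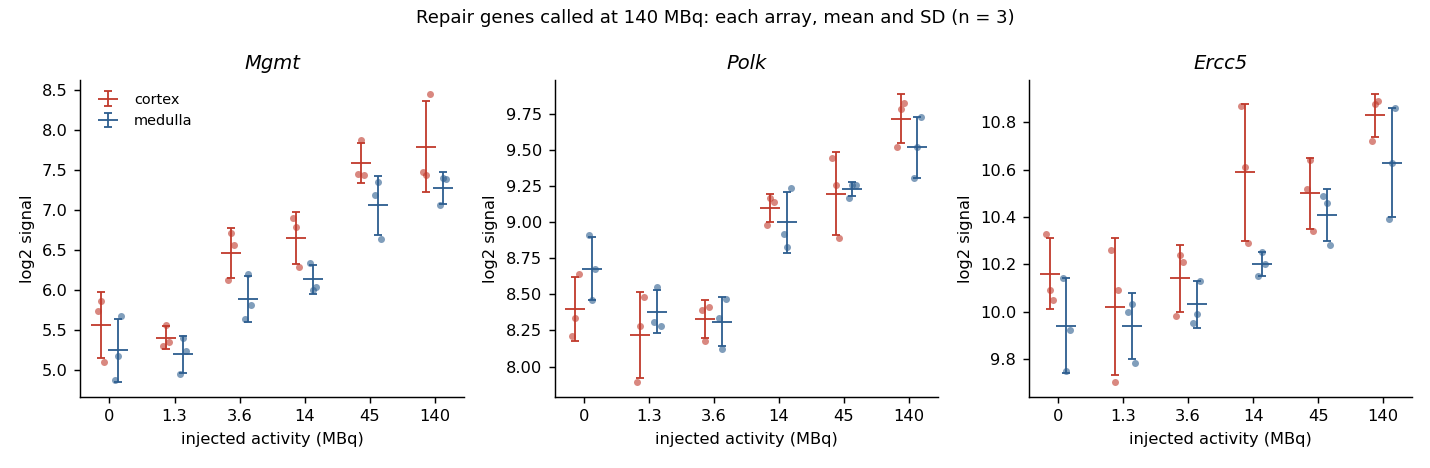
Log2 signal (y axis) of Mgmt, Polk and the brighter Ercc5 probe at each injected activity (x axis, categories in rising order) in cortex (red) and medulla (blue), with each array as a point and the mean and SD of 3 arrays as bars. Mgmt is lowest at 0 and 1.3 MBq and highest at 45 and 140 MBq, the treated Polk arrays fall on either side of a gap between 3.6 and 14 MBq, and Ercc5 averages 10.83 in cortex and 10.63 in medulla at 140 MBq.

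The start regions of these genes are shown because p53 is the transcription factor best known to act on repair genes after irradiation. Windows of 300 bases, 250 before and 50 after an annotated start, come from RefSeq on GRCm38.p6 and are printed on the gene's strand, with capitals on any p53 half-site found on either strand. The first Mgmt window lies at chr7:136894336-136894635 on the plus strand. For Polk the upstream start lies at chr13:96542530-96542829 and the downstream start at chr13:96519138-96519437, both on the minus strand. The Ercc5 window lies at chr1:44147494-44147793 on the plus strand.
Mgmt, first start: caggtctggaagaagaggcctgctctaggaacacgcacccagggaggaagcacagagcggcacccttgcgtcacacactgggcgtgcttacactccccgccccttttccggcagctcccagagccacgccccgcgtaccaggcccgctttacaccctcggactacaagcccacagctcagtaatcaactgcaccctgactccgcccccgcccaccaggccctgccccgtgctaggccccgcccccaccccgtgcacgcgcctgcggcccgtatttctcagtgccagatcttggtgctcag
Polk, upstream start: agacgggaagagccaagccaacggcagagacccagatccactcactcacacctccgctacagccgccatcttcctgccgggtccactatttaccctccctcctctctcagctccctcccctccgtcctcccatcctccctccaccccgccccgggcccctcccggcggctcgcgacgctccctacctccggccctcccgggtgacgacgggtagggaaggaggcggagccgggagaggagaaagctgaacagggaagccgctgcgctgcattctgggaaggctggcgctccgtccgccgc
Polk, downstream start: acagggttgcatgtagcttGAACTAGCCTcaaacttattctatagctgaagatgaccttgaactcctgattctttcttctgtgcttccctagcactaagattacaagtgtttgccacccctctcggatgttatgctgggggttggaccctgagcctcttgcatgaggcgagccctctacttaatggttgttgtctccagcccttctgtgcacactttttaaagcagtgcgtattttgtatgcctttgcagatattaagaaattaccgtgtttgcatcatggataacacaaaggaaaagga
Ercc5: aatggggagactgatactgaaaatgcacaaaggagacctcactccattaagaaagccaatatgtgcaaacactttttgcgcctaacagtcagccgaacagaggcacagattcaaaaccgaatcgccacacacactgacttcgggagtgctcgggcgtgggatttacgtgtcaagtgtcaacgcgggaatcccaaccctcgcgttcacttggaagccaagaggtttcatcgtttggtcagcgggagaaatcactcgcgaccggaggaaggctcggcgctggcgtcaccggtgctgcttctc
A half-site of 10 bases was found in the downstream Polk window, with its first base at -231 from that start. It was the only one in the 25 windows of the 20 measured repair genes that matched the table by symbol, while 8.36% of all 32851 windows held at least 1 half-site and 0.0731% held 2 with at most 13 bases between them. A match describes the letters and is not evidence of a bound site, and where none was found, as for Mgmt and Ercc5, only these windows were read.

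Over the 15 treated arrays of a tissue, a slope on log2 activity called Mgmt, Polk and Ercc5 in cortex and in medulla. These were 3 of 24 genes rising with activity and 0 falling in each tissue. By probe they were 3 of 41 in cortex and 4 of 41 in medulla. Of all probes 0.486% rose in cortex (0.564% either way) and 0.493% in medulla (0.642% either way). Mgmt gained 0.34 ± 0.04 on the log2 scale per doubling of activity in cortex (adjusted p = 0.000124) and 0.31 ± 0.03 in medulla (adjusted p = 8.46e-06), which put it at rank 16 and rank 12 of the 15420 probes by p. Polk gained 0.23 ± 0.03 in cortex (adjusted p = 9.52e-05) and 0.19 ± 0.02 in medulla (adjusted p = 0.000127). Ercc5 gained 0.12 ± 0.02 in cortex (adjusted p = 0.0367) and 0.10 ± 0.02 in medulla (adjusted p = 0.00486). The cortex slope of Ercc5 was lost on leaving out any of 10 of the 15 arrays (all at 3.6 and 140 MBq, replicates 2 and 3 at 1.3 MBq and 1 and 2 at 45 MBq), with adjusted p up to 0.136, and its second probe was not called there (0.09, adjusted p = 0.095). Without the 1.3 MBq arrays, where Mgmt was undetected, the Mgmt slope was 0.28 in cortex, no longer called (adjusted p = 0.0608), and 0.29 in medulla (adjusted p = 0.0061). Neither Ercc5 slope was then called (adjusted p = 0.422 in cortex and 0.0946 in medulla).

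**Figure D3:**
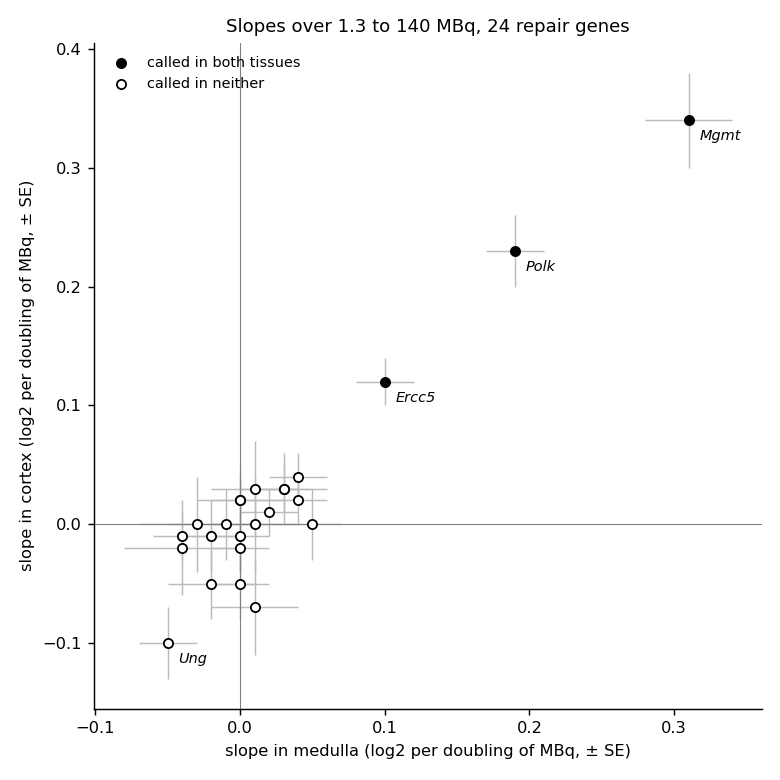
Slope of log2 signal per doubling of injected activity over 1.3 to 140 MBq in cortex (y axis) against medulla (x axis) for 24 repair genes, with ± SE bars. Mgmt, Polk and Ercc5 lie at the upper right, and the other genes lie within 0.10 of 0 on both axes, with Ung lowest at -0.10 in cortex and -0.05 in medulla.

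Among the remaining genes the smallest slope p belonged to Ung, Trp53bp1 and Chek2 in cortex and to Ung, Rad50 and Trp53bp1 in medulla, and none was called. Ung encodes uracil-DNA glycosylase, which starts base excision at deaminated cytosine. Its cortex signals were 7.54, 7.54 and 7.71 at 0 MBq, 8.03, 7.87 and 7.73 at 1.3 MBq, and 7.38, 7.80 and 7.69 at 3.6 MBq. They were 7.81, 7.57 and 7.44 at 14 MBq, 7.26, 7.59 and 7.27 at 45 MBq, and 7.57, 7.19 and 6.78 at 140 MBq. The mean was highest at 1.3 MBq, where all 3 arrays lay just above the controls, neighbouring treated groups overlapped, and the slope was -0.10 ± 0.03 (adjusted p = 0.141). In medulla the Ung means were 7.44, 7.44, 7.20, 7.32, 7.07 and 7.06 in rising order of activity, and the slope was -0.05 ± 0.02 (adjusted p = 0.397).

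Rad50, an ATPase of the MRN complex that senses breaks, read 8.86, 8.72 and 8.93 at 140 MBq in medulla, against 8.76, 8.48 and 8.30 at 0 MBq. A control lay inside the 140 MBq group, and the slope was 0.04 ± 0.02 (adjusted p = 0.403). Trp53bp1, whose product gathers at breaks and steers them to end joining, read 9.08, 9.18 and 9.36 at 140 MBq in cortex, against 9.79, 9.34 and 8.86 at 0 MBq. In medulla Trp53bp1 read 9.27, 9.18 and 9.45 at 140 MBq, against 9.80, 9.33 and 8.95 at 0 MBq. Its controls spread more widely than its 140 MBq arrays, with control replicate 1 the highest in both tissues, and its slopes were 0.04 in cortex (adjusted p = 0.568) and 0.04 in medulla (adjusted p = 0.48). Chek2, the checkpoint kinase activated by Atm, was close to the detection limit. In cortex it read 6.03, 6.23 and 6.31 at 140 MBq, against 5.60, 5.73 and 5.71 at 0 MBq with 1 of 3 controls detected. Its cortex means were 6.43, 6.24, 6.06, 5.81 and 6.19 at 1.3, 3.6, 14, 45 and 140 MBq, so the treated groups did not rise with activity. Its highest difference was 0.75 at 1.3 MBq in cortex (adjusted p = 0.134 by limma), which passed in a fit of all 36 arrays.

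Xpc and Ddb2, which recognise lesions for nucleotide excision repair, Rrm2b, a ribonucleotide reductase subunit of resting cells, and Polh, the translesion polymerase that copies past thymine dimers, are known from human cells as targets of p53. None of the 4 was called at any activity, in a slope or in the test between tissues. The 4 were picked out after their values were seen, so they do not stand for all p53 targets in the set. Xpc read 9.67, 9.25 and 9.42 at 140 MBq in cortex, against 9.07, 9.28 and 9.32 at 0 MBq, and 9.66, 9.24 and 9.51 in medulla, against 9.30, 9.32 and 9.70. Ddb2 read 8.51, 8.52 and 8.39 in cortex, against 7.77, 8.58 and 8.66, and 8.65, 8.63 and 8.38 in medulla, against 8.12, 8.23 and 8.49. Both genes overlapped between 140 and 0 MBq in both tissues. Rrm2b read 9.39, 9.54 and 8.50 at 140 MBq in cortex, against 9.48, 9.41 and 9.66 at 0 MBq, and 9.27, 9.39 and 9.22 in medulla, against 9.55, 9.55 and 9.28. Polh, undetected on some arrays, read 6.43, 6.40 and 6.0 in cortex, against 5.86, 6.15 and 6.43, and 5.62, 6.43 and 5.38 in medulla, against 5.44, 5.93 and 6.16. These groups overlapped as well.

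**Figure D4:**
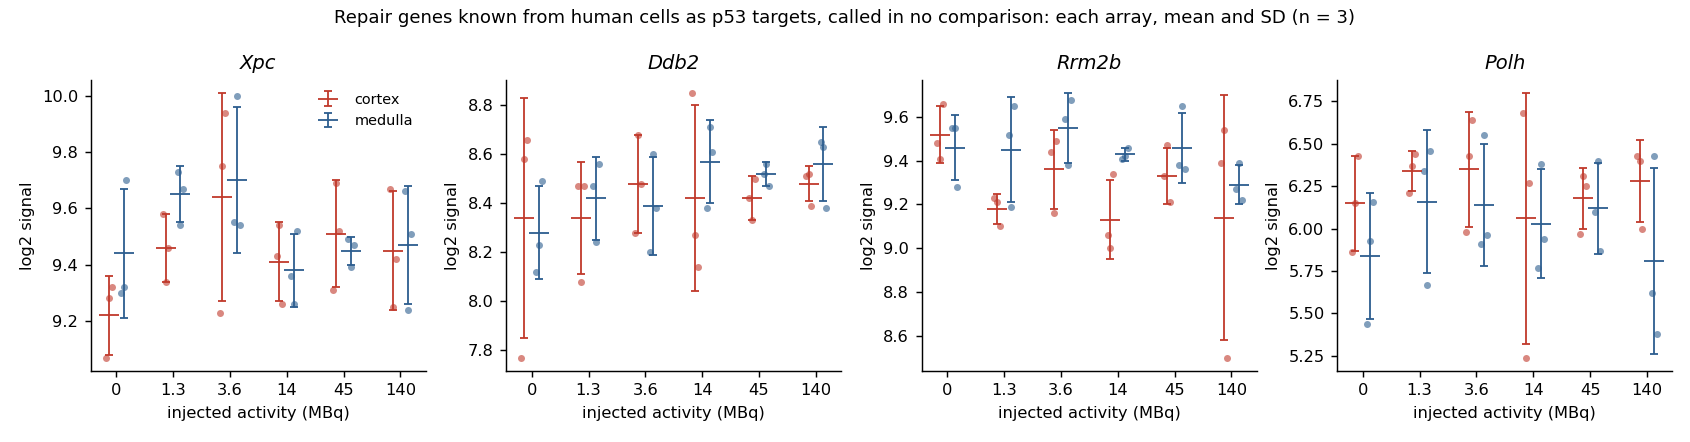
Log2 signal (y axis) of Xpc, Ddb2, Rrm2b and Polh at each injected activity (x axis, categories in rising order) in cortex (red) and medulla (blue), with each array as a point and the mean and SD of 3 arrays as bars. Group means span 9.22 to 9.70 for Xpc and 8.28 to 8.57 for Ddb2, with no group set apart.

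The precision at 140 MBq limits how large an unseen change in these genes could be. The 95% intervals of the log2 difference in cortex were -0.18 to 0.62 for Xpc, -0.36 to 0.63 for Ddb2, -0.84 to 0.09 for Rrm2b and -0.49 to 0.75 for Polh. In medulla they were -0.31 to 0.36 for Xpc, -0.04 to 0.59 for Ddb2, -0.47 to 0.14 for Rrm2b and -0.65 to 0.58 for Polh. For comparison, the interval of Mgmt was 1.63 to 2.83 in cortex and 1.57 to 2.53 in medulla, and that of Polk was 0.91 to 1.72 and 0.50 to 1.17. Rises of the size seen for Mgmt lay outside all of these intervals, and a rise like that of Ercc5 in cortex, at 0.67, lay inside the cortex interval of Polh alone. The other 3 Ddb2 probes had differences of -0.16 to 0.15 in cortex and -0.57 to -0.14 in medulla, below the brighter probe's 0.28 there, and none was called.

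At 45 MBq, 1 of the 24 genes rose in cortex, Mgmt, beside 0.454% of all probes upward and 0.707% either way. In medulla Mgmt rose (1.41% of probes upward) and Lig1 fell (0.772% downward, 2.19% either way). Lig1 encodes DNA ligase I, which seals nicks in base excision repair and joins Okazaki fragments during replication. Its brightest probe read 6.52, 6.69 and 5.67 at 45 MBq in medulla, with 2 of 3 arrays detected, against 7.82, 7.70 and 6.93 at 0 MBq. All 3 treated arrays lay below the controls, and the difference was -1.19 ± 0.26 (adjusted p = 0.0267 by limma). At 140 MBq Lig1 read 7.34, 7.17 and 6.87, 2 of them inside the range of the controls, with a difference of -0.35 (adjusted p = 0.613). Of the other Lig1 probes, one differed by -0.27 at 45 MBq and was not called, and one was undetected on all 3 arrays there and gives no fold, and the authors' deposited normalisation gave -0.54. Control replicate 1 was the highest of the medulla arrays, and without it the difference was -1.02 (adjusted p = 0.122). The call was also lost without control replicate 2 (adjusted p = 0.091) and without 45 MBq replicate 1 (adjusted p = 0.0586) or 3 (adjusted p = 0.0992). Of 13 measured proliferation genes, 1 fell in the same comparison, Mcm6, a subunit of the replicative helicase.

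At 14 MBq, 0 of the 24 genes were called in cortex, where 1.19% of all probes were. A fit of all 36 arrays called 2 there. In the cortex fit 6 genes had an unadjusted p under 0.05. All probes were not counted at that cut, so this count is not read as a result. In medulla Mgmt and Rad23b rose, against 2.39% of all probes upward and 4.14% either way. By probe this was 2 of 41, close to the share of all probes called either way, so the count is not read as a result about the set. Rad23b encodes a partner that stabilises Xpc. It read 9.52, 9.45 and 9.54 at 14 MBq, against 8.70, 9.04 and 8.88 at 0 MBq, a difference of 0.63 ± 0.14 (adjusted p = 0.0248 by limma). The 14 MBq arrays lay above all controls and above every medulla array at 140 MBq, which read 9.13, 9.29 and 9.18 (0.33, adjusted p = 0.359). The call was lost without 14 MBq replicate 3 (0.61, adjusted p = 0.09), without control replicate 1 (0.54, adjusted p = 0.099) and without either other 14 MBq array.

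**Figure D5:**
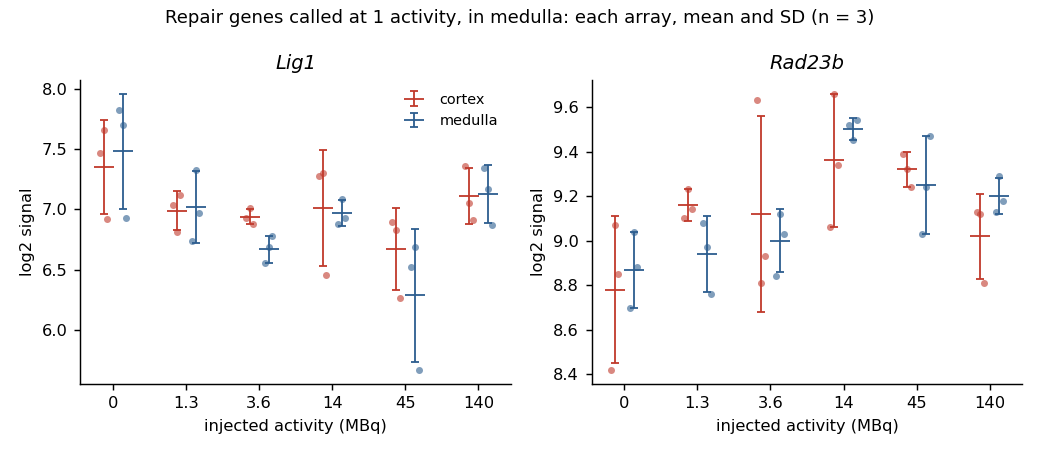
Log2 signal (y axis) of Lig1 and Rad23b at each injected activity (x axis, categories in rising order) in cortex (red) and medulla (blue), with each array as a point and the mean and SD of 3 arrays as bars. In medulla, Lig1 is lowest at 45 MBq, with a mean of 6.29, and Rad23b is highest at 14 MBq, with a mean of 9.50, and neither follows the order of activity.

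At the 2 lowest activities 0 of the 24 genes were called by limma in either tissue. At 3.6 MBq 0.363% of all probes were called in cortex and 1.56% in medulla, and 3 and 4 of the genes had an unadjusted p under 0.05. At 1.3 MBq 0.22% of probes were called in cortex and 0.674% in medulla, and 3 and 1 of the genes had an unadjusted p under 0.05. All probes were not counted at that unadjusted cut, so these counts of genes are not read as a result. An F test for any difference among the 6 groups called Mgmt and Polk in cortex (0.532% of all probes) and Mgmt, Polk and Ercc5 in medulla (4.89%).

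The other 19 genes were called in none of these fits within a tissue or between tissues, Chek2 in the fit of all 36 arrays apart, and over the 10 comparisons with 0 MBq their differences ran from -0.56 to 0.76 with no adjusted p below 0.114. Base excision repair gave the largest group of them. Parp1, which binds nicks and makes poly(ADP-ribose), stayed within -0.22 to 0.16 by its brightest probe. Another Parp1 probe, detected on 36 arrays, had means above 0 MBq at every activity in both tissues, but was not called. It averaged 9.46 at 45 MBq in cortex, against 9.12 at 0 MBq, and 9.36 at 3.6 MBq in medulla, against 8.97. The scaffold Xrcc1 stayed within -0.18 to 0.08. Lig3, the ligase that pairs with Xrcc1, lay between -0.38 and 0.30, and Apex1, the endonuclease that cuts at abasic sites, between -0.41 and 0.52. Ogg1, the glycosylase for 8-oxoguanine, was detected on 16 of 36 arrays and lay between 0.02 and 0.74. Its cortex controls were undetected, and 2 of 3 cortex arrays at 140 MBq were detected. The bound for 140 MBq over 0 MBq was 1.27-fold, and limma's adjusted p was 0.429. The 140 MBq mean includes the undetected array, so this bound is no strict minimum.

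Of the break sensors, Mre11a, the nuclease of the MRN complex, lay between -0.56 and -0.21, with a smallest adjusted p of 0.114. It was below 0 MBq in 10 of 10 comparisons, but the 5 of each tissue share their 3 controls, so that one sign throughout is no test. Atm, the kinase that this complex activates, ranged from -0.20 to 0.44 by its brighter probe. Its other passing probe, not called, averaged 6.43 at 45 MBq in cortex, against 6.91 at 0 MBq. Brca2, which acts in homologous recombination, ranged from -0.02 to 0.36. Lig4, the ligase of end joining, ranged from 0.10 to 0.76, and Xrcc6, the Ku70 subunit that binds the ends, from -0.20 to 0.04 by its brightest probe. Another Xrcc6 probe, not called, averaged 7.99 at 140 MBq in cortex, against 8.29 at 0 MBq. In medulla that probe averaged 8.26 at 14 MBq, against 8.02 at 0 MBq. Ercc1, a subunit of the nuclease that cuts on the 5′ side of the lesion, differed by -0.12 in cortex (adjusted p = 0.934 by limma) and 0.32 in medulla (adjusted p = 0.613) at 140 MBq.

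The tissues were compared directly. At 0 MBq, cortex minus medulla ran from -0.28 for Polk to 0.32 for Mgmt, and 0 of the 24 genes were called by limma, where 0.435% of all probes were, and 0 had an unadjusted p under 0.05. This fit takes the arrays as independent, while cortex and medulla arrays of one number deviated together at 0 MBq (correlations of 0.577 to 0.634). With the number as a block, 0 of the 24 were called at 0 MBq (smallest adjusted p = 0.493 by limma), where 1.26% of all probes were, and 0 had an unadjusted p under 0.05. The difference between cortex and medulla in the response to 140 MBq ran from -0.52 to 0.54, with 0 genes called, 0% of all probes called and 0 genes with an unadjusted p under 0.05, without the block as with it. For Mgmt it was 0.18 ± 0.37, with a 95% interval of -0.57 to 0.94. For Polk it was 0.48 ± 0.24, with an interval of -0.01 to 0.97. For Ercc5 it was -0.02 ± 0.22, with an interval of -0.47 to 0.43. The test did not show a larger response of these genes in one tissue, and the intervals of Mgmt and Polk leave room for one.

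Beyond the set, 65 further repair genes were measured from lists of the same pathways. In cortex 0 of the 65 were called by limma at any activity or in a slope. Of all probes, 0.22 to 1.19% were called in these cortex comparisons with 0 MBq and 0.564% in the slope. In medulla, against 0 MBq, 2 rose at 3.6 MBq (Polm and Rev1), 2 at 45 MBq (Mpg and Rev1) and 2 at 140 MBq (Polm and Rev1), and 0 fell. Of all probes 1.56%, 2.19% and 1.25% were called either way in these comparisons, and 1.41% at 45 MBq and 0.882% at 140 MBq were called upward. Counts this small are not read as a result about the list, and no test was made on it. For 14 against 3.6 MBq in medulla, where 7.83% of all probes were called, 3 of the 65 rose and 2 fell, Polm among these. Rev1, the deoxycytidyl transferase that other translesion polymerases, polymerase kappa among them, bind to, read 8.53, 8.29 and 8.57 at 140 MBq in medulla, against 7.24, 7.42 and 7.36 at 0 MBq. The groups did not overlap, and the difference was 1.12 ± 0.16, or 2.18-fold (adjusted p = 0.00085 by limma). Its medulla differences were 0.45, 0.79, 0.40, 0.84 and 1.12 in rising order of activity, and its slope was not called (0.08, adjusted p = 0.266). In cortex Rev1 read 8.58, 7.88 and 8.68 at 140 MBq, against 7.48, 7.50 and 7.30 at 0 MBq (0.95 ± 0.21, adjusted p = 0.0506). Mpg, the glycosylase for alkylated purines, differed by 0.79 ± 0.19 at 45 MBq in medulla (adjusted p = 0.0442). Polm, an end joining polymerase, was undetected on all medulla controls and detected on 2 of 3 arrays at 140 MBq. The bound for 140 over 0 MBq was 1.09-fold (adjusted p = 0.0474 by limma). Its 140 MBq mean includes the undetected array, so it is no strict minimum.

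The p53 targets outside repair give the scale of the response on these arrays. Cdkn1a, whose product p21 blocks cyclin-dependent kinases, read 11.99, 11.45 and 12.15 at 140 MBq in cortex, against 8.86, 8.40 and 7.38 at 0 MBq, a difference of 3.65 ± 0.35 or 12.5-fold (adjusted p = 3e-05 by limma). In medulla the difference was 3.05 ± 0.32 or 8.31-fold (adjusted p = 6.66e-05). That list was written with earlier results of these data known. Of its 7 measured genes 6 rose at 140 MBq in each tissue, where 0.59% of all probes rose in cortex and 0.882% in medulla. Sesn2 was not called (0.33, adjusted p = 0.766 by limma in cortex, and 0.50, adjusted p = 0.196 in medulla). The median difference of the list was 2.05 in cortex and 1.67 in medulla, beside medians of 0.03 and 0.09 for the repair genes. At 3.6 MBq 1 of the 7 rose in cortex, where 0.363% of all probes were called either way. It was the cyclin gene Ccng1 (0.95, adjusted p = 0.00786 by limma), while Cdkn1a (0.10) was not called. In medulla at 3.6 MBq Ccng1 (0.73) and Cdkn1a (-0.45) were not called.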

How the data were processed

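Total RNA of kidney cortex and medulla was hybridised to Illumina bead arrays, per the labels' protocols. The deposited signal table held bead intensities per probe without normalisation and, for each, a detection p-value against negative control beads, per the file headers. A second deposited table held intensities that, to judge by their near-equal quantiles, the authors had normalised between arrays; the sources used here name no method.

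Background correction and quantile normalisation used neqc of limma 3.58.1 (R 4.3.3, offset 16), which took its negative controls from the detection p-values. Probes with a detection p under 0.05 on at least 3 of 36 arrays were fitted with lmFit and eBayes, tissue by tissue over 6 groups, with Benjamini-Hochberg adjustment over all 15420 probes at a threshold of 0.05. Slopes used log2 activity over the treated arrays. Tissue contrasts used all 36 arrays. Where a group was undetected on all its arrays, a fold is a bound against the lowest detected signal.

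The repair genes, wider lists and tests were chosen with earlier results of these data known. Values on single arrays were given for genes called against 0 MBq, in a slope or between tissues, and for the 3 next by slope p in each tissue. For Mgmt and Polk the text gives them for all groups, and for the other genes only for some groups. Beyond these, Xpc, Ddb2, Rrm2b and Polh, known p53 targets, were picked out after their values were seen. So were Mcm6, Ccng1, Sesn2 and some details of Ercc1, Ogg1, Chek2, Parp1, Atm and Xrcc6. From outside the set the rule took Cdkn1a and at most 4 called genes of each wider repair list. Comparisons of neighbouring activities and slopes without the 1.3 MBq arrays were added after values were seen.

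Replicate numbers did not pair arrays within a tissue, where 6 of 30 correlations of deviations from the group means were above 0.1 (-0.285 to 0.267). Across tissues 14 of 18 were (-0.323 to 0.634), and the labels give no shared animal. Slide and scan date were not used here. The fit was tested on simulated data. RefSeq windows (GRCm38.p6) were matched by symbol. The number of arrays limits the precision.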

Additional observations from a re-analysis of the deposited data

How the results depend on the processing

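Alternatives to the background correction, the normalisation, the detection filter, the probes per gene, the arrays in the fit, the scale of activity and the pairing were run. None turned the direction of a called difference or slope of a repair gene of the set. Directions of uncalled values were not compared between settings. Single arrays aside, counts of repair genes called stayed within 1.5 times of those reported in 163 cases and moved in 11 cases. The 163 include cases where 0 genes were called in both fits. Named genes kept their side of the threshold in 122 cases and lost it in 10 cases, again single arrays aside. At 45 MBq in cortex, 2 genes (Mgmt and Polk) were called with the deposited normalisation, with no background correction and in the fit of all 36 arrays, in place of 1. At 14 MBq in medulla, 1 (Rad23b) was called with the deposited normalisation, with no background correction and with no detection filter, and 0 in the fit of all 36 arrays, in place of 2. That fit called 2 at 14 MBq and 1 (Chek2) at 1.3 MBq in cortex, in place of 0, and 1 for 14 against 3.6 MBq in medulla, in place of 2. Without the 1.3 MBq arrays the cortex slope called 1 (Polk), in place of 3. The cause was not tested.

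Leaving out each array in turn gave 0 to 1 genes at 14 MBq, 1 to 2 at 45 MBq and 2 to 3 for the slope in cortex. In medulla it gave 0 to 2 at 3.6 MBq, 0 to 3 at 14 MBq, 1 to 2 at 45 MBq, 1 to 3 at 140 MBq, 2 to 4 for any activity and 0 to 1 for 14 against 3.6 MBq. With the replicate number as a block, the Ercc5 slope in cortex was not called (adjusted p = 0.0774 by limma), which left 2 genes for that slope, and 2 in place of 3 were called for any activity in medulla. The block changed no other call of a named gene and no other count. With 3 arrays per group, and with Mgmt, Polh, Chek2, Lig4, Lig1 and Ogg1 near background on some arrays, smaller changes in these genes could not be resolved.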
